A study of Mus musculus with 6 samples.

Results

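A set of 5 genes annotated on the arrays acts in egg maturation, in the handling of stored egg mRNA or in cell survival: Btg4, Mos, Ybx2, Bcl2l10 and Pou5f1. They were taken by exact match of the probe annotation to these 5 names, which gave 7 of the 8272 probes on the arrays, 3 of them for Btg4 and 1 for each other gene. The tissue was whole ovary of C57Bl/6J mouse pups, taken at day 2 and day 4 after birth and compared with ovary taken within the first day (day 0). The pups carried no stated mutation or treatment, and the number of pups behind an RNA sample is not given in the sources used here. RNA was hybridised to spotted 2-colour cDNA arrays, glass slides printed with cDNA clones of a mouse embryo gene collection. There were 3 arrays at day 2 and 3 at day 4, each with a later RNA of its own in Cy5 against day 0 RNA in Cy3, and the series text places the first assembly of follicles at day 2 and their first growth just after it. Each value is a log2 ratio of the later day over day 0, the mean of up to 4 repeat spots, so that 1 unit is a doubling.

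An oocyte that has entered a follicle grows for days to weeks while it makes and stores mRNA, and transcription then stops, so that maturation and the first cleavage run on the stored messages. BTG4 is an adaptor that brings the CCR4-NOT deadenylase to maternal mRNA, which is then degraded. MOS is a kinase that switches on the MAPK cascade in maturing oocytes and holds the egg at the second meiotic metaphase. YBX2 (MSY2) is a germ cell Y-box protein that binds and stabilises stored mRNA. BCL2L10 (Diva) is a relative of BCL2 that is abundant in eggs, and POU5F1 (OCT4) is a transcription factor of pluripotent and germline cells, also expressed in growing oocytes.

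Sequence just upstream of the annotated start is shown for the genes with an entry in RefSeq's promoter table (GRCm38.p6), which were 3 of the 5 genes with 5 starts in all. The windows allow the gene with the clearest change, Btg4, to be read beside Ybx2, whose mean was near 0. They are 250 bases long, end 1 base before the start and lie on the plus strand: chr9:51115751-51116000 for Btg4, chr11:69935649-69935898 for the first Ybx2 start and chr17:35505782-35506031 for the first Pou5f1 start. Capitals mark the CCAAT box, ATTGG or CCAAT depending on the strand, the element after which Y-box proteins are named.
Btg4: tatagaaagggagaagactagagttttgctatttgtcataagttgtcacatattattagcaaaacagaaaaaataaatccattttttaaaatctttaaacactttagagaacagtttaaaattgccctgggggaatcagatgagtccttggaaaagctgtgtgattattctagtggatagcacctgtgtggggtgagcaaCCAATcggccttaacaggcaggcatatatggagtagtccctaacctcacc
Ybx2: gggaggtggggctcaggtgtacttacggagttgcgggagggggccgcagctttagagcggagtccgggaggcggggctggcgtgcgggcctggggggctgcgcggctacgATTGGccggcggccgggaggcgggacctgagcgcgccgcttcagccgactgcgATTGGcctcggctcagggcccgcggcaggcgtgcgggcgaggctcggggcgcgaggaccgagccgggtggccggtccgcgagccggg
Pou5f1: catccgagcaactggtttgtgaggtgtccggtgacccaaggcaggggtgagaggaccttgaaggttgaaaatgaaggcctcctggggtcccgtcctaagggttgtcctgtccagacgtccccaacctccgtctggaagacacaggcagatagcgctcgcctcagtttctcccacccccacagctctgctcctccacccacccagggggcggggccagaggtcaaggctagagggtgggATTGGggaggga

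The 3 windows differed in base composition, with 38% G or C in Btg4, 77.2% in Ybx2 and 62.0% in Pou5f1. A CCAAT box was found once in Btg4, with its first base at -50, 2 times in Ybx2, at -140 and -87, and once in Pou5f1, at -12. The windows of the second starts, not shown, held none in Ybx2 and 1 in Pou5f1, at -168. The box was present on either strand in 33.8% of all 32851 windows in the table. The E-box CANNTG, which FIGLA and other basic helix-loop-helix factors bind, was found at -114 and -70 in Btg4, at -237 in Ybx2 and at -242 in Pou5f1, with none at the second start of Ybx2 and matches at -143 and -51 at the second start of Pou5f1, against 66.2% of all windows. Neither the homeobox letters TAATTG (7.17% of windows) nor the octamer ATGCAAAT (1.60% of windows) was found in any of the 5 windows. All motifs were read on both strands, ATTGG can share letters with the E-box and with TAATTG, and no matches overlapped in the windows shown. A match is a run of letters and was not tested as a binding site.

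Before the members' values, the arrays themselves set limits. The arrays had values for 7775, 8272 and 5630 probes at day 4 and for all 8272 probes at day 2, and median log2 intensity ran from 8.74 to 10.58. The log2 ratios of day 2 arrays 1 and 2 were negatively correlated over all probes (Pearson r -0.68 across 8272 probes; probes are not replicates), although the labels give both the same dyes and ages. The direction of day 2 values is therefore not settled, and the results that rest on day 2 are also given with the sign of array 1 or of array 2 turned. Array 3 of both ages shared its day 0 RNA, and the other 4 arrays had a day 0 RNA each. Since every array carried the later day in Cy5, an effect of dye on a probe and a difference from day 0 cannot be told apart.

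Of the 42 possible values of the 7 probes, 40 were measured, and the 2 missing ones, of Mos and Bcl2l10 on day 4 array 3, carried a grid flag there. None of the 40 had a signal flag and 4 had an outlier flag, marks which the headers do not define. The SD of the repeats on an array had a median of 0.16 (log2) and ran from 0.029 to 1.12. Among all probes of an array, the members' intensities stood between the 16.8th and the 73.9th percentile. All 7 probes were tested, each with values from 2 or more arrays per age.

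**Figure D1:**
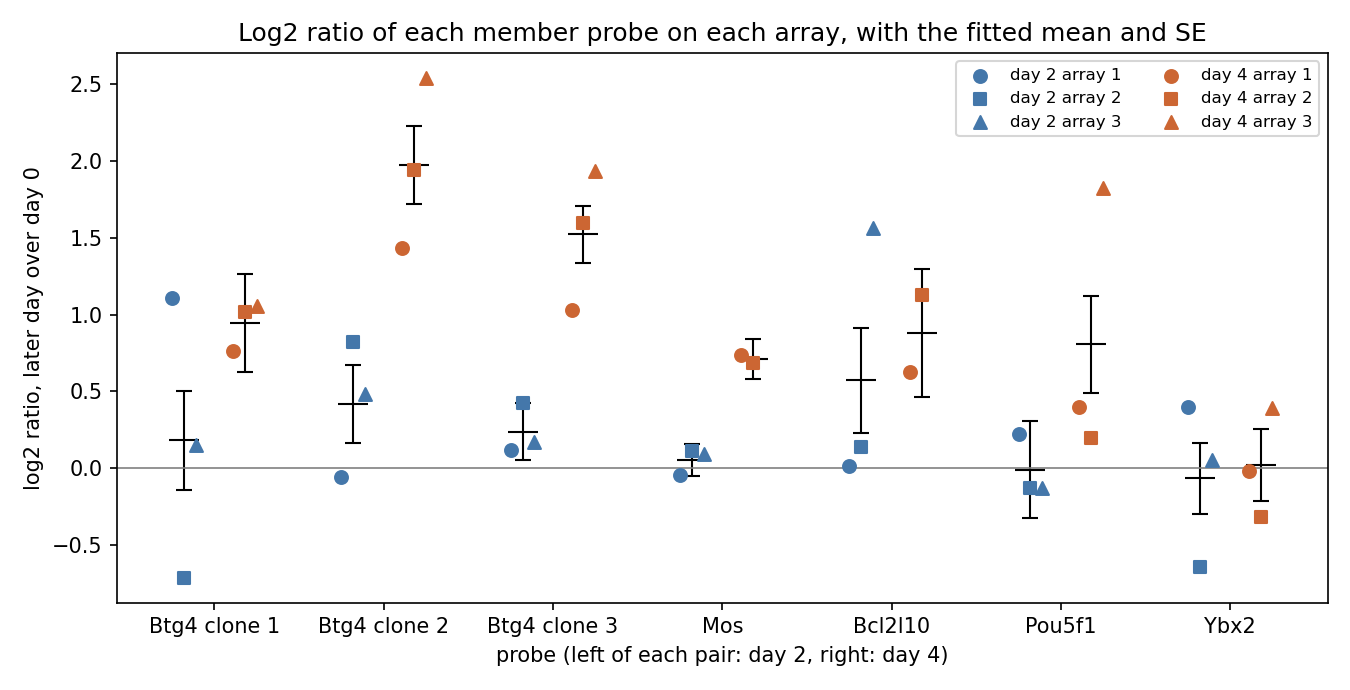
Log2 ratio of the later day over day 0 (vertical axis) for each of the 7 probes, with 1 symbol per array, day 2 in blue on the left and day 4 in orange on the right of each pair. Horizontal ticks are fitted means and bars are SE. Btg4 clones 2 and 3 and Mos have every measured day 4 value above every day 2 value, Mos from 2 day 4 arrays. Ybx2 lies on both sides of 0 at both ages.

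Btg4 was higher at day 4 than at day 0 by 2 of its 3 clones, and clone 1 had a value above 0 on all 3 day 4 arrays without passing the test. The clones are numbered here in the order of their identifiers. Clone 2 had 1.44, 1.94 and 2.54 on day 4 arrays 1, 2 and 3, and its day 2 values were -0.05, 0.82 and 0.49. The value on day 4 array 3 was the mean of 3 repeats, since 1 repeat had no value. Every day 4 value of clone 2 lay above every day 2 value. Its fitted log2 ratio at day 4 against day 0 was 1.97 ± 0.25 (SE, n = 3), a 3.92-fold difference (limma, adjusted p = 0.0488). Clone 3 had 1.03, 1.60 and 1.93 on the day 4 arrays, and 0.12, 0.42 and 0.17 on the day 2 arrays. Its groups did not overlap either. The fitted value at day 4 against day 0 was 1.52 ± 0.19 (SE, n = 3), 2.87-fold (limma, adjusted p = 0.0410). Both calls were lost when any 1 day 4 array was left out, with fitted values of 1.69 to 2.24 for clone 2 (limma, adjusted p 0.123 to 0.287) and 1.32 to 1.77 for clone 3 (adjusted p 0.0615 to 0.279). They were also lost without day 2 array 3 (limma, adjusted p = 0.180 and 0.160). The same held when day 2 array 2 had its sign turned (limma, adjusted p = 0.130 for both). In both settings the values stayed at 1.97 and 1.52, since day 2 arrays do not enter the day 4 mean. In an RNA measure of a whole ovary, more oocytes or a larger share of oocyte RNA and more Btg4 mRNA per cell cannot be told apart.

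Clone 1 of Btg4 had 0.76, 1.02 and 1.06 on the day 4 arrays, the smallest spread of the 3 clones at that age (SD 0.16), and 1.11, -0.71 and 0.15 on the day 2 arrays. The day 2 values spanned the day 4 range, since day 2 array 1 was above all 3 day 4 arrays. The 4 repeats on that array ran from 0.32 to 2.73 (SD 1.12), so that 1 high repeat raised its mean. The fitted log2 ratio at day 4 against day 0 was 0.95 ± 0.32 (SE, n = 3, limma, adjusted p = 0.423). When the 3 day 4 arrays were fitted alone, without the spread of day 2, the same value had an SE of 0.11 (limma, adjusted p = 0.0247).

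The 3 clones also differed in size on every day 4 array. Clone 2 exceeded clone 3 by 0.40, 0.34 and 0.61 and clone 1 by 0.67, 0.92 and 1.48 on day 4 arrays 1, 2 and 3. Over all 6 arrays the profiles of clones 2 and 3 correlated at r = 0.98, those of clones 1 and 2 at r = 0.33 and those of clones 1 and 3 at r = 0.49, with arrays and day 0 RNA shared between the points. Clone 1 was the brightest, at percentiles 58.0 to 73.9 of intensity across the arrays, clone 2 stood at 38.7 to 59.1 and clone 3 at 26.6 to 50.6. The part of the transcript each clone covers was not analysed here.

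**Figure D2:**
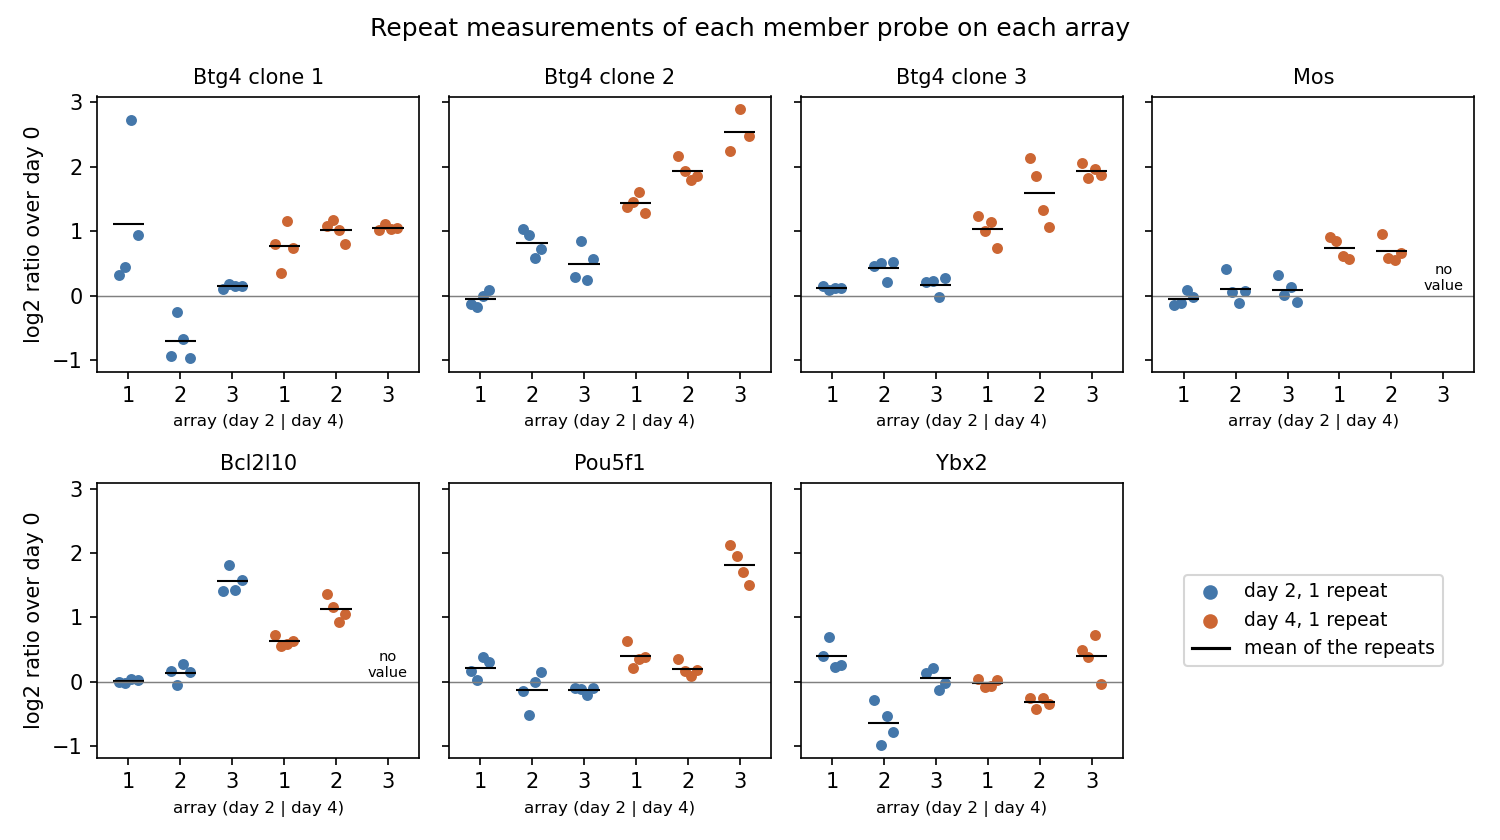
Repeat log2 ratios of each probe (points, vertical axis) on arrays 1 to 3 of day 2 (blue) and of day 4 (orange), with a bar at the mean of the repeats. The 4 repeats of Btg4 clone 1 on day 2 array 1 run from 0.32 to 2.73, the repeats of Pou5f1 on day 4 array 3 run from 1.51 to 2.13, and those of Bcl2l10 on day 2 array 3 from 1.41 to 1.82.

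Mos, the kinase at the head of the MAPK cascade of oocyte maturation, was measured on 2 of the 3 day 4 arrays, at 0.74 and 0.69. Its day 2 values were -0.05, 0.11 and 0.09, so that both day 4 values lay above all 3 day 2 values. The SD between arrays was 0.037 at day 4, from only 2 arrays, and 0.085 at day 2. The fitted log2 ratio at day 4 against day 0 was 0.71 ± 0.13 (SE, n = 2), 1.64-fold, with an unadjusted p of 0.00263 (limma) that missed the threshold over all probes (adjusted p = 0.152). With a variance prior that follows intensity, the adjusted p was 0.0322 (limma).

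Bcl2l10, the BCL2 relative of eggs, had 0.63 and 1.13 on day 4 arrays 1 and 2 and no value on array 3. At day 2 it had 0.01 and 0.14 on arrays 1 and 2 and 1.56 on array 3. Both day 4 values were above day 2 arrays 1 and 2 and below day 2 array 3. The 4 repeats on day 2 array 3 lay close together (SD 0.19), and this value stood at the 99.9th percentile of all log2 ratios on that array. The fitted log2 ratio was 0.88 ± 0.42 (SE, n = 2) at day 4 (limma, adjusted p = 0.626) and 0.57 ± 0.34 (SE, n = 3) at day 2 (limma, adjusted p = 0.966). Without day 2 array 3 the day 2 value was 0.08.

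Pou5f1, the OCT4 transcription factor, had 0.40, 0.20 and 1.82 on the day 4 arrays and 0.22, -0.13 and -0.13 on the day 2 arrays. Day 4 array 3 stood far above the other two arrays of that age, and day 4 array 2 lay just below day 2 array 1. The repeats on day 4 array 3 ran from 1.51 to 2.13 (SD 0.27). The fitted log2 ratio at day 4 against day 0 was 0.81 ± 0.32 (SE, n = 3, limma, adjusted p = 0.512). Without day 4 array 3 it was 0.30. Among all log2 ratios of an array, Pou5f1 stood at percentile 90.9 on day 4 array 1, 74.3 on array 2 and 98.8 on array 3.

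Ybx2, the mRNA-storing Y-box protein, had -0.01, -0.31 and 0.39 on the day 4 arrays and 0.40, -0.65 and 0.05 on the day 2 arrays. The groups overlapped, and each age held values on both sides of 0. The fitted log2 ratio at day 4 against day 0 was 0.02 ± 0.23 (SE, n = 3, limma, adjusted p = 0.980). The 95% confidence interval ran from -0.54 to 0.59, so that a rise or a fall within that interval remains possible.

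Together, 2 of the 7 probes passed at day 4 against day 0, both of Btg4 and both higher, where 39 of all 8135 probes tested passed (0.479%), all of them higher. At an unadjusted p under 0.05 (limma), 5 of the 7 were higher, among them the 3 Btg4 clones, against 407 of 8135 probes higher (5%). A value above 0 on every day 4 array with a value was found for 6 of the 7, Ybx2 being the exception, against 28.4% of all probes tested. For Mos and Bcl2l10 this rests on 2 arrays, since both lacked a value on day 4 array 3. The median log2 ratio of the 7 was 0.88, and that of all probes was -0.00. Both called probes are clones of 1 gene. The 3 Btg4 clones are not independent of each other and enter these counts and the median 3 times.

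**Figure D3:**
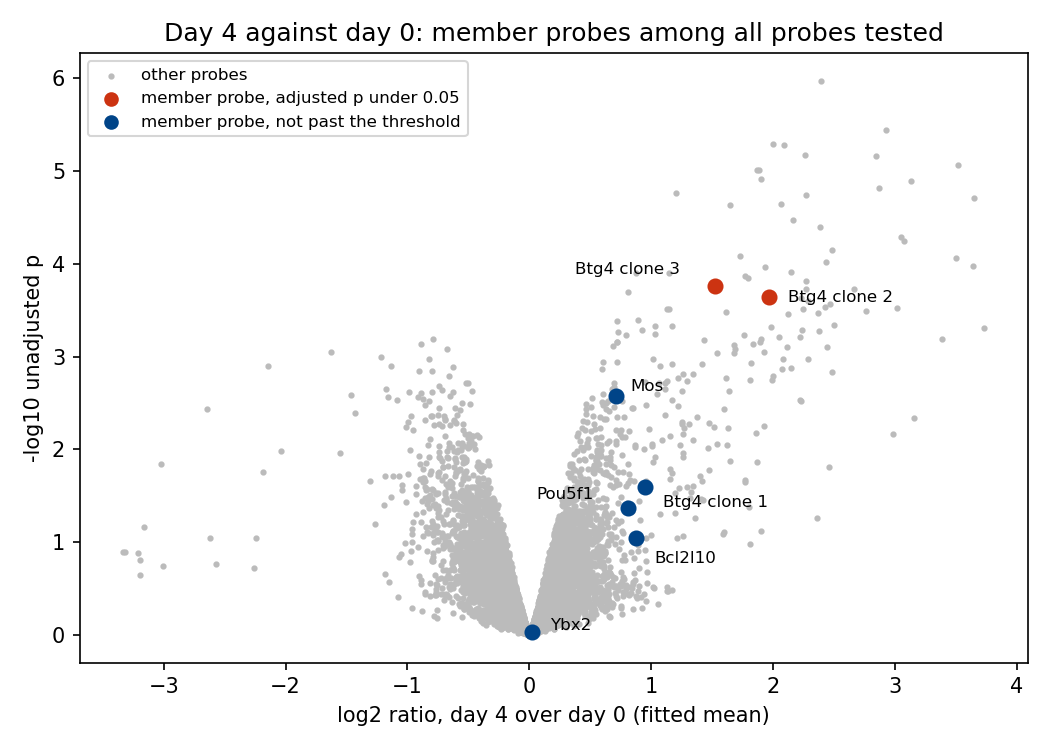
Fitted log2 ratio of day 4 over day 0 (horizontal axis) against -log10 of the unadjusted p (vertical axis) for the 8135 probes tested, in grey, with the 7 probes of the 5 genes marked. Btg4 clones 2 and 3, in red, have an adjusted p under 0.05; the 5 others, in blue, do not.

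In the order of the fitted values at day 4, Btg4 clones 2, 3 and 1 came first (1.97, 1.52 and 0.95), then Bcl2l10 (0.88), Pou5f1 (0.81), Mos (0.71) and Ybx2 (0.02). From Btg4 clone 1 to Mos, the 4 values had SEs of 0.13 to 0.42, more than the steps between them, so that their order is not resolved. The interval of Mos (0.38 to 1.04) and that of Ybx2 (-0.54 to 0.59) overlapped. The intervals of Btg4 clones 2 (1.35 to 2.59) and 3 (1.07 to 1.97) lay above that of Ybx2, but the difference between genes was not tested.

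At day 2 against day 0, none of the 7 probes passed, none had an unadjusted p under 0.05, and 0 of 8135 probes passed (0%) while 231 had such an unadjusted p (2.84%, limma). That last count was unstable. It was 1884 (23.2%) when array 1 was turned and 1120 (13.8%) when array 2 was, and it was 1464, 525 and 72 without day 2 arrays 1, 2 and 3. Of the 7 probes, 1 had such a p in either turned setting, Btg4 clone 1, with opposite signs. No probe passed the adjusted threshold in these settings. The fitted values ran from -0.06 ± 0.23 for Ybx2 to 0.57 ± 0.34 for Bcl2l10 (SE, n = 3). Btg4 had 0.18 ± 0.32, 0.42 ± 0.25 and 0.24 ± 0.19 by clones 1, 2 and 3, Mos had 0.05 ± 0.11 and Pou5f1 had -0.01 ± 0.32. Of the 21 day 2 values, 15 were above 0, and 12 or 14 were when array 1 or array 2 was turned. With the sign of day 2 array 1 turned, Btg4 clones 1, 2 and 3 had -0.56, 0.45 and 0.16, Mos 0.08, Bcl2l10 0.56, Pou5f1 -0.16 and Ybx2 -0.33. With the sign of array 2 turned instead, the values were 0.66, -0.13 and -0.04 for the Btg4 clones, -0.02 for Mos, 0.48 for Bcl2l10, 0.07 for Pou5f1 and 0.37 for Ybx2. Every gene but Bcl2l10 thus had a probe whose day 2 direction depended on those signs.

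Day 4 was set against day 2 by way of day 0, and a dye effect common to the 6 arrays drops out of this difference. None of the 7 probes passed it and 0 of 8135 did (0%, limma). At an unadjusted p under 0.05 there were 3 of the 7, against 215 of all probes (2.64%). When array 1 was turned there were 4 of the 7 against 931 (11.4%), and when array 2 was turned 3 of the 7 against 721 (8.86%). Over all probes the count was 594, 445 and 161 without day 2 arrays 1, 2 and 3. Btg4 clone 2 was at 1.55 ± 0.36 (SE, n = 3; limma, unadjusted p = 0.00478, adjusted p = 0.99988), clone 3 at 1.28 ± 0.26 (limma, unadjusted p = 0.00268, adjusted p = 0.949) and clone 1 at 0.76 ± 0.45. Mos had 0.66 ± 0.17 (SE, n = 2; limma, unadjusted p = 0.0106, adjusted p = 0.99988). Pou5f1 had 0.82 ± 0.45, Bcl2l10 0.31 ± 0.54 and Ybx2 0.09 ± 0.33. Every day 4 array with a value lay above every day 2 array for 3 of the 7 probes, against 5.32% of all probes. These were Btg4 clones 2 and 3 and Mos, the last from 2 day 4 arrays. When array 1 was turned these were 5 of the 7, with Btg4 clone 1 and Pou5f1 added, against 12.6%, and when array 2 was turned they were the same 3 against 11.0%. With the sign of day 2 array 1 turned, Btg4 clones 1, 2 and 3 had 1.50, 1.52 and 1.36 and Mos 0.63, and with that of array 2 turned they had 0.29, 2.10, 1.57 and 0.73. The other 3 genes had 0.96 (Pou5f1), 0.32 (Bcl2l10) and 0.35 (Ybx2) with array 1 turned, and 0.73, 0.40 and -0.34 with array 2 turned.

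Array 3 of each age was hybridised against the same day 0 RNA, which gives a direct difference of day 4 minus day 2 in 1 pair. It was 2.05 and 1.76 for Btg4 clones 2 and 3, 0.91 for clone 1, 1.95 for Pou5f1 and 0.34 for Ybx2. Over the 5630 probes with a value on both arrays the median difference was 0.00, and the 5th and 95th percentiles were -0.62 and 0.60. The values of 4 of the 5 probes measured there exceeded that range, and that of Ybx2 did not. This is 1 pair without replicates and carries no test.

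Genes that work beside these 5 were then read from lists of pathway members, with the brightest probe for each gene, and the 5 genes left out. Of the Mos-MAPK and MPF (Cdk1-cyclin B) pathway, 17 of 29 genes were measured, and 8 had a log2 ratio above 0 at day 4 and 9 below, with a median of -0.03 and none past the test. Their smallest p-values at day 4 against day 0 belonged to Bub1b, a spindle checkpoint kinase (0.45 ± 0.13), Fbxo43 or Emi2, the inhibitor of the anaphase-promoting complex in eggs (0.33 ± 0.10), and Plk1, a mitotic kinase (0.47 ± 0.24; SE, n = 3 each).

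The mRNA deadenylation and decay list, where the CCR4-NOT partner of BTG4 stands, had 7 of 33 genes measured, 1 above 0 and 6 below, with a median of -0.34 and none past the test. Zfp36, which brings deadenylases to AU-rich mRNAs, was the one above, at 1.04, 1.73 and 2.68 on the 3 day 4 arrays (1.82 ± 0.32, limma, adjusted p = 0.102). Cnot1, the scaffold of the deadenylase itself, had -0.56 ± 0.23 and Btg2, a relative of Btg4, had -0.55 ± 0.27 (SE, n = 3 each).

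Of the list of Y-box proteins and factors of mRNA storage and translational control, 10 of 27 genes were measured, 4 above 0 and 6 below, with a median of -0.02 and none past the test. Ybx1, the widely expressed relative of Ybx2, had -0.08, -0.43 and -1.04 on the 3 day 4 arrays (-0.52 ± 0.32, limma, adjusted p = 0.708). A second probe of Ybx1, less bright, lay on the other side of 0, at 0.22 ± 0.25 (limma, adjusted p = 0.838), so that the direction of Ybx1 is not settled. Igf2bp3, an RNA-binding protein of early development, had -0.56 ± 0.14 on 2 arrays and Eif4e, the cap-binding factor, -0.54 ± 0.20 on 3.

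Among the Bcl2 family and core apoptosis genes, 7 of 33 were measured, 5 above 0 and 2 below, with a median of 0.09 and none past the test. Diablo, which releases caspases from their inhibitors, had -0.48, -0.51 and -0.46 on the 3 day 4 arrays (-0.48 ± 0.10, limma, adjusted p = 0.168). Bok, a pro-apoptotic BCL2 relative, had 0.50 ± 0.19 on 3 arrays, and Birc2, an inhibitor of apoptosis, had 0.62 ± 0.24 on 2.

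Of the pluripotency and germline identity genes, 11 of 27 were measured, 6 above 0 and 5 below, with a median of 0.12 and none past the test. Nr5a2, a nuclear receptor of granulosa cells and early embryos, had 0.33 ± 0.13, Sall4, a germline transcription factor, 0.24 ± 0.10, and Klf4, a reprogramming factor, -0.21 ± 0.14 (SE, n = 3 each). Across the 5 pathway lists, 14 of 52 measured genes had more than 1 probe, and in 6 of these a probe had the opposite sign to the brightest one. In all 5 lists, no gene passed the test in any of the 3 comparisons. Over all probes 0.479% passed at day 4 against day 0, and 0% did at day 2 against day 0 and at day 4 against day 2. The lack of a pass in lists of this size therefore carries little weight. Of all probes tested, 49.8% had a log2 ratio above 0 at day 4 against day 0.

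The median of the oocyte markers was high on the same arrays. All 12 of the 27 listed oocyte and germ cell genes that were measured had a log2 ratio above 0 at day 4 against day 0, with a median of 2.10 against -0.00 over all probes. The values ran from 0.007 to 3.64, and the lowest was a germ cell marker near 0 (0.007 ± 0.13, SE, n = 3). The list was chosen with earlier results of these data known, so the count above 0 carries no independent weight. A total of 3 passed by their brightest probe (limma): H1f8, the oocyte linker histone (2.39 ± 0.12, adjusted p = 0.00862), Oas1d (3.05 ± 0.30, adjusted p = 0.0208) and Nlrp14 (3.64 ± 0.41, adjusted p = 0.0329), both expressed in oocytes. Gdf9 and Oas1c passed by another of their probes. None of the brightest probes passed when any 1 day 4 array was left out. Only 11, 10 and 11 of the 12 were tested without day 4 arrays 1, 2 and 3. None of the 12 passed when day 2 array 2 was turned, 1 passed without day 2 array 3, and 5 passed without day 2 array 1 or 2. The median ran from 1.81 to 2.42 in these settings, over fewer genes where a day 4 array was left out. Leaving out or turning a day 2 array cannot move it. The mean over the list ran from 1.96 to 2.03 on the 3 day 4 arrays and from -0.05 to 1.20 on the 3 day 2 arrays. At day 2 the median was 0.52, with 11 of 12 above 0 and none past the test. When array 1 was turned it was 0.36 (10 of 12 above 0), and when array 2 was turned it was -0.06 (5 of 12). The part of oocyte number in the members' values was not tested.

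Markers of other cell types had smaller medians. At day 4 against day 0, the median log2 ratio was 0.42 for granulosa cells (3 genes measured, all above 0), 0.32 for steroidogenic and theca cells (4 measured, 3 above 0) and 0.47 for stroma and smooth muscle (6 measured, all above 0). It was below 0 for endothelium (-0.45, 4 measured), leukocytes (-0.56, 2 measured), the erythroid lineage (-0.88, 5 measured) and surface epithelium (-0.31, 6 measured). None of these genes passed the test, where 0.479% of all probes did. Among the granulosa genes, Nr5a2 was read from the same probe as in the pluripotency and germline list, and its second probe had 0.09. Cdkn1b, also in the granulosa list, had a value on 2 day 4 arrays.

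**Figure D4:**
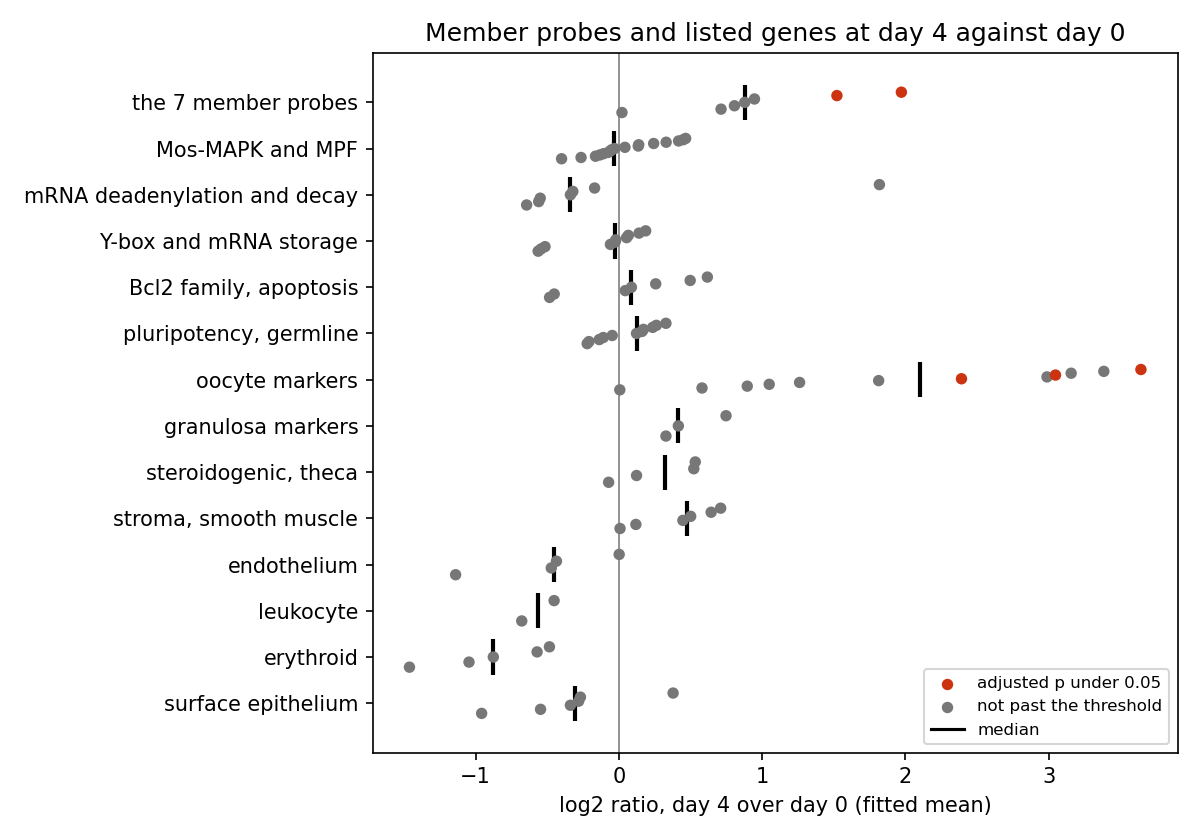
Fitted log2 ratio of day 4 over day 0 (horizontal axis) for the 7 probes of the 5 genes and for the measured genes of each list (rows, 1 point per gene), with the median as a black bar and genes with an adjusted p under 0.05 in red. The 7 probes have a median of 0.88 and the oocyte markers a median of 2.10; the 5 pathway lists have medians between -0.34 and 0.12.

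The named probes whose log2 ratios lay closest to the brightest probe of each gene were found by the root mean square (RMS) difference over the arrays with a value. Mos was nearest to Depdc7 at 0.068, chemokine (C-X-C motif) ligand 1 at 0.10 and Nexn at 0.13, over 5 arrays, where the median probe stood at 0.61. Ybx2 lay near Dcaf8 (0.060), serine/threonine kinase 11 (0.071) and immature colon carcinoma transcript 1 (0.095) over 6 arrays, with a median probe at 0.51. Btg4 clone 1 was nearest to cysteine dioxygenase 1 (0.31), Gm6710 (0.36) and breast cancer metastasis-suppressor 1 (0.39) over 6 arrays, with a median probe at 0.95. Clone 1 is the Btg4 clone that did not pass the test, and neighbours of the called clones were not sought. Bcl2l10 was nearest to oviductal glycoprotein 1 (0.24), meningioma expressed antigen 5 (0.35) and chaperonin subunit 4 (0.36) over 5 arrays, with a median probe at 1.04. Pou5f1 was nearest to casein kinase II alpha 1 related sequence 4 (0.30), Star (0.33) and homer homolog 2 (0.34) over 6 arrays, with a median probe at 0.89. The neighbours were chosen by these same log2 ratios, so that day 2 and day 4 means like those of the member follow from the choice. Among the neighbours of Bcl2l10, oviductal glycoprotein 1 had means of 1.26 at day 4 and 0.61 at day 2. Those of chaperonin subunit 4 were 0.64 at day 4 and 0.69 at day 2.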

How the data were processed

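Values are log2 ratios of later day (Cy5) over day 0 (Cy3), deposited by the authors for each probe and array as 4 repeats with a mean log2 intensity and flags. No header defines the flags, which were used only in an alternative that leaves out values with any flag. The authors used R 1.7.1, per the submitters' processing notes, with background correction and normalization not given in the sources used here. Array medians were near 0, so no further normalization was applied. Tests on the mean of the repeats came from limma 3.58.1 (R 4.3.3), fitted to all 6 arrays with a mean for each age, 2-sided, and Benjamini-Hochberg adjustment over the 8135 of 8272 probes with values on at least 2 arrays of each age, at an adjusted p under 0.05. Both ages share 1 estimate of spread, which enters every SE. The number of arrays limits the precision, and p-values measure the spread between these RNA samples. Genes were named by a rule: all probes of the 5 genes, list genes past the test or otherwise up to 3 with the smallest p at day 4 against day 0, and the 3 nearest named probes. Gene names came from a RefSeq gene table (GRCm38.p6, names only) for 1507 probes, by hand for 119 and as the annotation name for 2993, and 3653 stayed unnamed. Members, lists and rule were chosen with earlier results of these data known. The code was tested on simulated data. Alternatives were other scaling, filters, variance priors, arrays left out, and signs turned.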

Additional observations from a re-analysis of the deposited data

How the results depend on the processing

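With 3 arrays per age, calls near the threshold are not firm. At day 4 against day 0, 39 probes passed, 2 of them Btg4 clones. The count over all probes was 96 after scale normalization between arrays, 125 with a trended variance (3 of the 7 probes, Mos the third), 166 from the day 4 arrays alone (3 of the 7), 0 without array 3 of both ages (0 of the 7) and 0 where day 2 array 2 had its sign turned (0 of the 7). Clone 3 alone passed (1 of the 7) with the median of the repeats, without a filter and with a robust variance, and also without flagged values, where 6 of the 7 were tested. Leaving out 1 array gave 0 to 71 probes and 0 to 2 of the 7 (of 5 without day 4 array 1 or 2, where Mos and Bcl2l10 were not tested). It gave 0 without any single one of the day 4 arrays, where 5630, 5270 and 7775 probes were tested without arrays 1, 2 and 3. With 8135 probes tested, it gave 71 without day 2 array 1 and 16 without day 2 array 3 (0 of the 7). The fitted values of Btg4 clones 2 and 3 at day 4 against day 0 ran from 1.69 to 2.24 and from 1.32 to 1.77 over the 19 alternatives. Settings that change only day 2 arrays, the variance prior or the filter cannot move a day 4 mean, so they do not bear on it. At day 4 against day 2, 1 probe passed with a trended variance, none of the 7. Directions turned for 23 of the single values, none of them past the test. Some of the settings themselves turned the sign of a day 2 array, and in the others the cause was not tested. For Ybx2 at day 4 against day 0 the turned values were -0.014 (scaled) and -0.16 (without array 3 of both ages), and leaving out 1 array gave -0.16 to 0.19. At day 2 against day 0, Ybx2 had 0.052 (scaled) and 0.37 (array 2 turned), and -0.30 to 0.23 with 1 array left out. At day 4 against day 2, it had -0.066 (scaled), -0.041 (without array 3 of both ages) and -0.34 (day 2 array 2 turned), and -0.20 to 0.32 with 1 array left out. At day 2 against day 0, Btg4 clone 1 had -0.56 (array 1 turned), and -0.28 to 0.63 with 1 array left out. Pou5f1 had 0.012 (scaled), 0.020 (median of repeats), 0.048 (without flagged values or without array 3 of both ages) and 0.074 (array 2 turned), and -0.13 to 0.048 with 1 array left out. With array 2 turned, Btg4 clones 2 and 3 had -0.13 and -0.044 and Mos -0.021. Deviations of same-numbered arrays correlated at 0.37, 0.053 and 0.51 over 5270 probes. Between arrays of different numbers the correlations ran from -0.42 to 0.091. Array 3 of both ages shared its day 0 RNA, and whether the replicate numbers pair the other samples is not settled. With the replicate number as a block, 0 probes and 0 of the 7 passed at day 4 against day 2 (limma, 240 at an unadjusted p under 0.05). The shared day 0 RNA as a random block was not run, since 1 extract shared by 1 pair of arrays gave no estimate of the correlation.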
